A study of Homo sapiens with 8 samples.

Results

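The Musashi genes *MSI1* and *MSI2*, together with *CCDC182*, *MRPS23* and *CUEDC1*, the genes that follow *MSI2* along 17q22, were examined in stitched enhancers mapped by H3K27Ac ChIP-seq in medulloblastoma (MB) cell lines. These 5 genes, of 27449 gene models used, were selected on the H3K27Ac signal, rank and SE call of their enhancers in these same libraries, so those values are given as a description and no test was run on them. An enhancer was counted for a gene when it overlapped the gene body or lay within 50 kb of the start site. By this rule 14 of 26072 enhancers of MB002, 19 of 26317 of D425, 14 of 15286 of HD-MB03 and 14 of 20875 of UW228 belonged to the 5 genes.

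MB002, D425 and HD-MB03 are labelled as Group 3 MB (G3-MB), the MB subgroup in which MYC activation is most frequent, and UW228 as a Sonic hedgehog (SHH) MB line. All are established human lines grown without treatment, MB002 and HD-MB03 in serum-free stem cell medium with EGF, FGF and LIF, and D425 and UW228 in DMEM with fetal bovine serum. Of each line 1 H3K27Ac and 1 input library were made, so the spread between replicates is unknown and every comparison between lines describes single libraries. UW228 was the only non-G3 line and its values were made on a later date than those of the other lines, so subgroup, line and date cannot be told apart.

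Musashi proteins bind RNA through a pair of RNA recognition motifs and regulate the translation and stability of their target transcripts. *MSI1* is a classical marker of neural stem and progenitor cells, and *MSI2* is expressed in neural and hematopoietic progenitors and is active in several cancers. H3K27Ac marks active enhancers and promoters. Super-enhancers (SEs) are the stitched clusters with the highest H3K27Ac signal, and all others are typical enhancers (TEs). The signal used here is the normalised H3K27Ac coverage of a region minus its input, floored at 0, and rank 1 is the highest in the line.

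Stretches covered by an enhancer in all 3 G3-MB lines were found by intersecting their regions. Such a stretch covered 91.3 kb inside *MSI2*, at chr17:57506515-57597849 of GRCh38. A further pair lay over *MRPS23* and *CUEDC1*, at chr17:57848953-57900183 and chr17:57916066-57949692, and 3.29 kb lay inside *MSI1*, at chr12:120361126-120364412. To show what these stretches hold, a 300-base window outside exons is printed from *CUEDC1* and from *MSI1*, in GRCh38 and on the plus strand. It is the window with the most kinds, and then the largest number, of 4 short words. TAATCC is the core bound by OTX and CRX homeodomains, CACGTG the E-box of MYC and MAX, CAGATG an E-box of proneural bHLH factors and GGGCGG the GC box of SP factors. Capitals mark a match on either strand. The *CUEDC1* window is chr17:57881116-57881415 in intron 2 and lies inside a UW228 enhancer, and the *MSI1* window is chr12:120363145-120363444 in intron 5, which no UW228 enhancer covered.
CUEDC1 intron 2: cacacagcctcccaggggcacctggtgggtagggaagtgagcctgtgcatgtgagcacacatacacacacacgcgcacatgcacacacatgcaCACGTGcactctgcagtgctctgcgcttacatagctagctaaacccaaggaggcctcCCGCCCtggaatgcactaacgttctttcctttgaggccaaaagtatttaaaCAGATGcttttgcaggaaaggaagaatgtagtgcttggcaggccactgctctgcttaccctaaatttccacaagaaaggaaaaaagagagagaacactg
MSI1 intron 5: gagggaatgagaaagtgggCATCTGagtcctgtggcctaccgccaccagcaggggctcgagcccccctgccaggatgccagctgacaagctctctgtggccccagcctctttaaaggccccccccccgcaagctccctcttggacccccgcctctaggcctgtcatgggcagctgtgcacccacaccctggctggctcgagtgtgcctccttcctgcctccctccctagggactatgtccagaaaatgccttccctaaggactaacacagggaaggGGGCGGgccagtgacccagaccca

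In the *MSI2* stretch the share of windows with a word was above that of other stretches for CAGATG and close to it or below it for the rest, and no test was run. Of its 304 windows of 300 bases, 28.6% held CAGATG, against 22.9% of 70052 such windows in the other G3-shared stretches. TAATCC was found in 18.8% of the windows, against 21.6%. Alu repeats carry TAATCC with TG before it and CA after it, and without matches in that setting the shares were 13.2% and 13.99%. CACGTG was found in 4.28%, against 4.24%, and GGGCGG in 8.22%, against 10.9%. Over *MRPS23* and *CUEDC1*, TAATCC was found in 26.5% of the 170 windows of the stretch at the *MRPS23* end and in 34.8% of the 112 windows of the other. Outside the Alu setting these shares were 15.9% and 17.9%. The other words were found in 3.57% to 5.29% (CACGTG), 18.8% to 22.9% (CAGATG) and 9.82% to 12.4% (GGGCGG) of the windows of these stretches. The 10 windows of *MSI1* held TAATCC in 2, CAGATG in 2, GGGCGG in 3 and CACGTG in 0. In the RefSeq promoter sequences of *MSI2* (2 entries), *CCDC182* and *MRPS23*, 250 bases before to 50 after the start, GGGCGG was found in 1 *MSI2* entry, as in 45.0% of 35116 promoters, and the other words in none. A match describes letters only and is not evidence of binding.

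The 5 genes fell into 3 patterns. *MSI2* had an SE in each G3-MB line and TEs only in UW228, *MRPS23* and *CUEDC1* had an SE in all 4 lines, and *MSI1* and *CCDC182* had mainly TEs and no enhancer at all in UW228. Over all genes with an enhancer, 4.72% (MB002), 6.05% (D425), 5.6% (HD-MB03) and 8.89% (UW228) were SE-associated. SE association in all 3 G3-MB lines was found for 0.852% of the 11852 genes with an enhancer in each of them, SE association there but not in UW228 for 0.616%, and SE association in all 4 lines for 0.313% of 8934 genes. As the genes were picked for these calls, nothing is read from their own share.

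**Figure D1:**
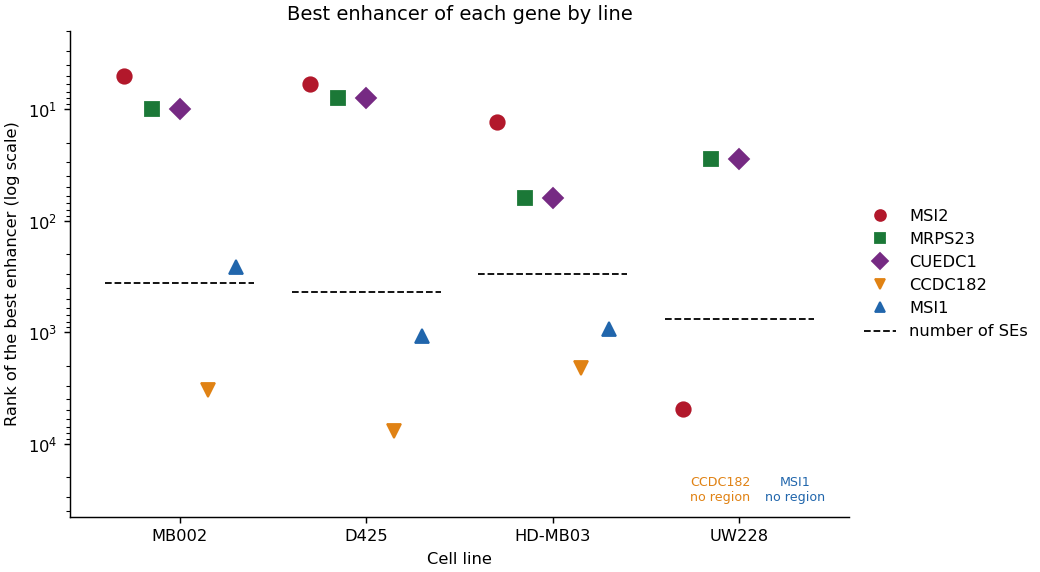
Rank of the best enhancer of each gene in each line, on a log axis with rank 1 towards the top; the dashed line is the number of SEs of the line, so points above it are SEs. *MSI2* lies at ranks 5, 6 and 13 in the G3-MB lines and at 4832 in UW228, whereas *MRPS23* and *CUEDC1*, which share a region, stayed above the line in all 4; *CCDC182* and *MSI1* had no region in UW228.

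*MSI2* lies on the plus strand of chromosome 17 from 57255851 to 57701581, a gene body of 446 kb. Its best enhancer ranked 5 (MB002), 6 (D425) and 13 (HD-MB03). All were SEs near the top of their line by total signal. Ranked by mean signal per bp, the same regions were an SE in MB002 at rank 120 and TEs in D425 and HD-MB03 at ranks 530 and 3919. In MB002 the SE spanned 141 kb, at chr17:57499805-57641031, was stitched from 24 peaks and had a signal of 485973, 15.0 times the SE cutoff of the line. In D425 it spanned 91.3 kb, at chr17:57506508-57597849, with 40 peaks and a signal of 190729, 7.28 times the cutoff. In HD-MB03 it spanned 100 kb, at chr17:57506515-57606673, with 21 peaks and a signal of 74558, 3.25 times the cutoff. The SE was thus at the same place in all 3 G3-MB lines. None of the 10 *MSI2* enhancers of UW228 was an SE. The best of them, of 3.45 kb at chr17:57479538-57482988, ranked 4832 and had a signal of 5693, 0.233 times the cutoff.

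The SE lay far from the start site of the gene model used here. Its nearest edge was 244 kb from the start site in MB002 and 251 kb in D425 and in HD-MB03. In the MANE transcript of 14 exons it reached from intron 6 to intron 8 in D425 and HD-MB03 and to intron 10 in MB002, and no start of a GENCODE basic transcript fell inside it. The basic transcript *MSI2-222* starts at 57487061, shortly before the SE. Intron 7, of 67.1 kb, was covered in full in each G3-MB line and 9.22% in UW228. The H3K27Ac signal there was 231046 (MB002), 140201 (D425), 49981 (HD-MB03) and 2197 (UW228).

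Further enhancers along *MSI2* were weaker than the SE of the G3-MB lines, and among these lines their extent differed more. MB002 had a second SE at rank 323, of 82.2 kb at chr17:57402163-57484331, which lay just inside the SEs at 1.07 times the cutoff. The other 6 enhancers of *MSI2* in MB002 were TEs, and the best of them ranked 642. In D425 the remaining 8 enhancers were TEs at rank 1689 and lower, and in HD-MB03 the remaining 6 were TEs at rank 1380 and lower. The 91.3 kb stretch shared by the G3-MB lines was covered 6.78% by enhancers of UW228, whereas over all 6780 such stretches of the genome, 22.2 Mb in total, UW228 covered 26.8%. This stretch is part of the regions on which *MSI2* was selected, so the contrast is a description. Small stretches around 184 kb and 205 kb from the start site, of 4.1 kb and 1.65 kb, were covered 91.7% and 98.2% in UW228. Both lie in intron 6 before the SE, so the enhancers of UW228 there lay partly where those of the G3-MB lines did.

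**Figure D2:**
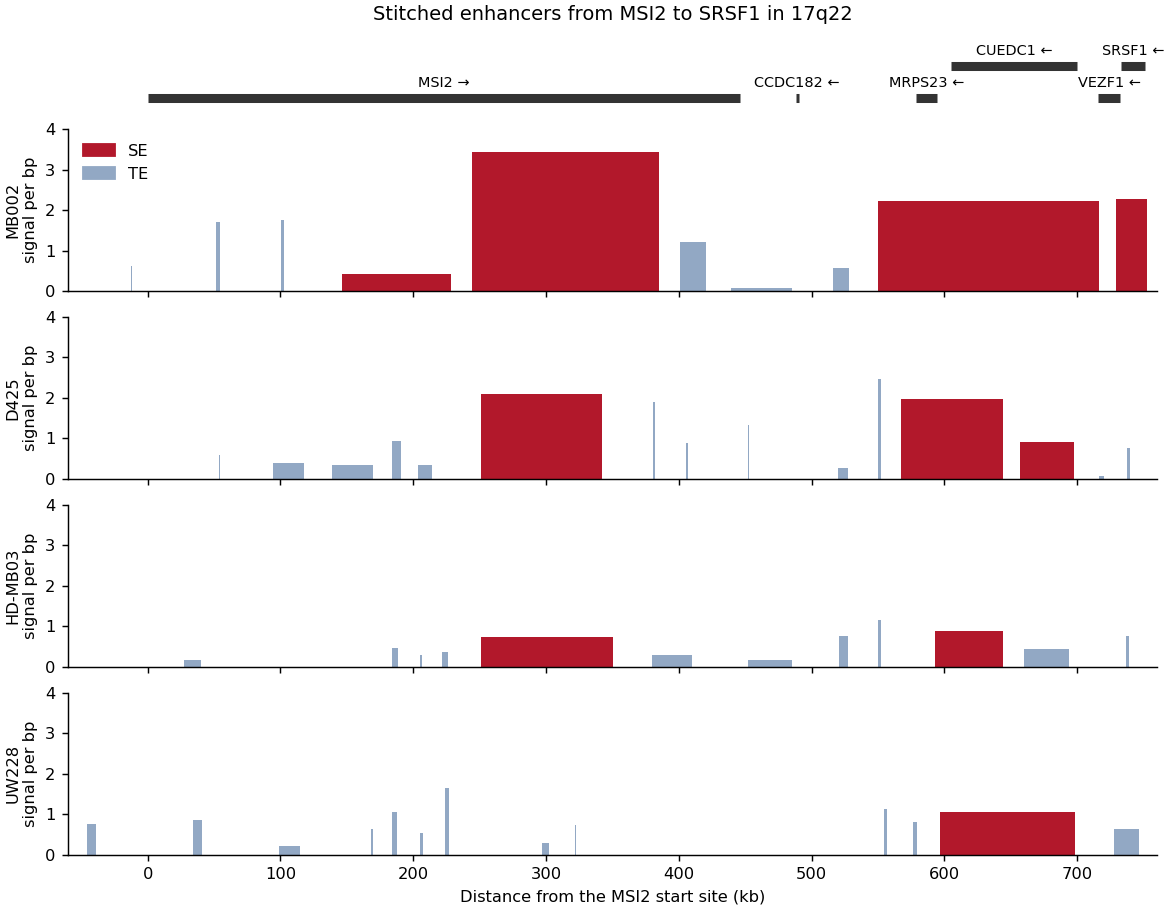
Stitched enhancers along the 17q22 interval in each line, against the distance from the *MSI2* start site in kb; the height of a bar is the H3K27Ac signal minus input per bp, its width the length of the region, red an SE and blue a TE, with gene bodies and their direction on top. A broad SE inside *MSI2* stands in MB002, D425 and HD-MB03 and is missing in UW228, while an SE over *CUEDC1* stands in all 4 lines.

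*MRPS23*, which encodes a protein of the small subunit of the mitochondrial ribosome, and *CUEDC1*, which encodes a protein with a ubiquitin-binding CUE domain, lie next to each other on the minus strand, from 57834781 to 57850044 and from 57861243 to 57955412. They had the same best enhancer in every line, so their values are not independent. It ranked 10 (MB002), 8 (D425), 62 (HD-MB03) and 28 (UW228) and was an SE in each. Ranked by mean signal per bp, this region was a TE in all 4 lines, at ranks 492, 612, 2882 and 3896. In MB002 it spanned 167 kb, at chr17:57805858-57972476, with a signal of 372458, 11.5 times the cutoff. In D425 it spanned 76.7 kb, at chr17:57823507-57900184, with a signal of 151207, 5.77 times the cutoff. In HD-MB03 it spanned 51.2 kb, at chr17:57848953-57900183, with a signal of 45144, 1.97 times the cutoff. The region had nearly the same right edge in D425 and HD-MB03 and reached further in both directions in MB002. In UW228 it spanned 102 kb, at chr17:57852395-57954503, with a signal of 107336, 4.39 times the cutoff. The signal of UW228 lay between those of HD-MB03 and D425, but as a share of the enhancer signal of its line the part from *MRPS23* to *CUEDC1* was lowest in UW228, at 0.103% against 0.123% in HD-MB03. These shares are not divided by input. The input per bp of the enhancer, relative to the median enhancer of the line, was 0.652 in UW228, against 1.64 (MB002), 2.47 (D425) and 1.06 (HD-MB03). Divided by this value, the enhancer ranked 4 in UW228, against 3, 55 and 72.

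Beyond the shared part, the lines differed in how far the enhancer reached. It covered all 11 exons of *CUEDC1* in MB002 and exons 2 to 11 in the other lines, and included the start of *MRPS23* in the G3-MB lines but ended 2.35 kb short of it in UW228. When only overlap with the gene body was counted, the best *MRPS23* enhancer of UW228 was therefore a TE at rank 9751. In D425 and HD-MB03 a gap split the enhancer, and its part towards the *CUEDC1* start was an SE at rank 212 in D425 and a TE at rank 721 in HD-MB03. The stretches shared by the G3-MB lines at this locus were covered 93.3% and 100% in UW228. MB002 had a further SE at rank 131, at chr17:57985068-58008603, over the start of *VEZF1*, which encodes a zinc finger transcription factor, and the whole of *SRSF1*, which encodes a splicing factor. There D425, HD-MB03 and UW228 had TEs at ranks 8431, 5100 and 2201.

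*CCDC182*, a coiled-coil domain gene of little known function, is a single-exon gene of 0.805 kb between *MSI2* and *MRPS23*, on the minus strand from 57744495 to 57745299. It had TEs only, 2 in each G3-MB line, with best ranks of 3305 (MB002), 7654 (D425) and 2103 (HD-MB03), and none in UW228. No enhancer overlapped the gene. The signals of these best TEs were 6774, 2036 and 5894, or 0.209, 0.0777 and 0.257 times the cutoff. By this rule and with the deposited regions *CCDC182* was not SE-associated. With the closest start site added, as in the ROSE gene mapper, it was also given the *MSI2* SE in all 3 G3-MB lines, and *MSI2* kept it. This rests on 1 start site per gene model, since *MSI2-222* starts nearer to that SE. In UW228 that rule gave it a TE at rank 11027.

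The rule's 50 kb window decided some memberships. The nearest enhancer outside the window of *CCDC182* was the *MRPS23* and *CUEDC1* SE in MB002, 60.6 kb away, and TEs at 60.6 kb in D425, 60.9 kb in HD-MB03 and 64.9 kb in UW228. At *MSI1*, the enhancers just inside lay 46.7 kb away in MB002 and 47.2 kb away in D425, and those just outside lay 51.1 kb away in HD-MB03 and 51.6 kb away in UW228, all of them TEs. The SE of rank 127 in MB002 lay 105 kb from the *MSI1* start and was not counted. At *MSI2* nothing that was an SE lay near the limit.

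The interval described as a whole ran 800 kb along chromosome 17, from 55.9 kb before the *MSI2* start to 44.6 kb beyond the *CUEDC1* start. It held 11 (MB002), 16 (D425), 13 (HD-MB03) and 14 (UW228) enhancers, of which 4, 3, 2 and 1 were SEs. They covered 488 kb, 300.0 kb, 284 kb and 170 kb of it, and carried 1.04%, 0.533%, 0.340% and 0.145% of the enhancer signal of the line. The shares count whole regions. With regions cut at the borders, as the lengths were, they were 1.02% in MB002 and 0.144% in UW228 and unchanged in D425 and HD-MB03. The number of enhancers was therefore similar, and the lines differed in length covered and signal. The genome was cut into windows of 800 kb with borders set to match those of the interval. The interval was thus kept whole, while other clusters could be split. By signal it stood at place 4 among the 3296 windows of MB002 with an enhancer, 3 among 3334 of D425, 10 among 2908 of HD-MB03 and 90 among 2962 of UW228. The interval holds genes chosen on this signal, so these places are a description. The median window held 0.0152%, 0.0148%, 0.0145% and 0.0204% of the signal. The pair of strongest enhancers held 86.8% (MB002), 80.5% (D425), 72.5% (HD-MB03) and 78.4% (UW228) of the signal of the interval.

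**Figure D3:**
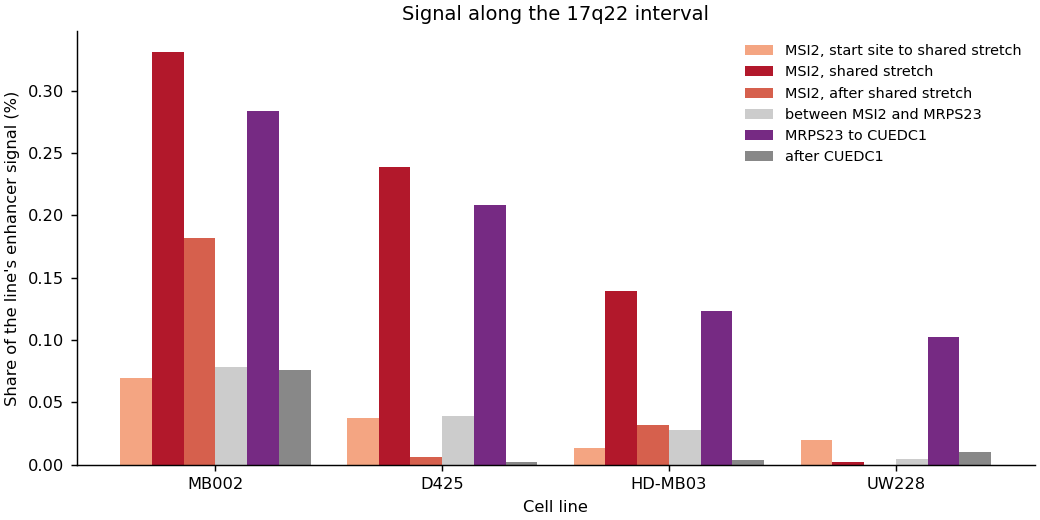
Share of the enhancer signal of each line, in percent, that fell in 6 consecutive parts of the 17q22 interval; an enhancer that crosses a border was divided by length. The shared stretch of *MSI2* held 0.331%, 0.239% and 0.140% in the G3-MB lines from left to right and 0.0021% in UW228, while the part from *MRPS23* to *CUEDC1* held 0.284%, 0.209%, 0.123% and 0.103%.

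The ratio of the signals of *MSI2* and *CUEDC1* within a library does not depend on the scaling of that library. Signal in the body of *MSI2* was 2.63 times that in the body of *CUEDC1* in MB002, 1.98 times in D425 and 1.83 times in HD-MB03, but 0.237 times in UW228. For the shared stretch of *MSI2* alone the G3-MB lines had ratios of 1.49, 1.67 and 1.39, and UW228 of 0.0224. The genes were selected on this signal, so the ratios are a description. Enhancers of a region that spans a border were divided by length, which assumes an even signal within the region.

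The positions of the enhancers were compared between pairs of lines by the length that both covered. Of the enhancer length inside *MSI2*, 7.75% of that of MB002, 17.5% of that of D425 and 13.0% of that of HD-MB03 was also covered in UW228. Over the genome these shares were 14.2%, 19.9% and 19.6%, so that of D425 at *MSI2* was close to its genome value. In the other direction, the *MSI2* enhancer length of UW228 was covered to 49.9% (MB002), 73.8% (D425) and 50.4% (HD-MB03), against 15.1%, 20.9% and 11.0% over the genome. That length was 39.5 kb in UW228, against 254 kb, 166 kb and 154 kb in the G3-MB lines. Inside *CUEDC1*, UW228 covered 99.0% of the length of MB002 and 100% of that of D425 and of HD-MB03, and the length of UW228 was covered to 100% (MB002), 85.4% (D425) and 77.8% (HD-MB03). Among the G3-MB lines, 82.3% of the *MSI2* enhancer length of D425 and 81.4% of that of HD-MB03 was covered in MB002, against 33.8% and 46.6% over the genome. HD-MB03 covered 60.8% of that of D425 and D425 covered 65.8% of that of HD-MB03, against 20.3% and 38.1%. Of the *MSI2* enhancer length of MB002, 53.8% was covered in D425 and 49.2% in HD-MB03, against 33.3% and 24.5%. These pairs, too, include the regions on which the genes were selected.

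Input at the interval was raised in MB002 and D425. The relative input density, which sets the input per bp of an enhancer relative to the median enhancer of its line, had a median over the interval of 1.55 (MB002), 2.47 (D425), 1.09 (HD-MB03) and 0.815 (UW228), for enhancers of at least 1 kb. These values lay above those of the whole long arm, by little in MB002, HD-MB03 and UW228 and by more in D425. Enhancers on 17q had medians of 1.49, 2.06, 1.00 and 0.748 and those on 17p of 0.502, 0.739, 0.970 and 0.718, so the arms differed in MB002 and D425 and hardly in HD-MB03 and UW228. At the *MSI2* SE the density was 1.82 (MB002), 2.69 (D425) and 1.15 (HD-MB03). When the signal of each enhancer was divided by its own density, *MSI2* ranked 2 (MB002), 39 (D425), 18 (HD-MB03) and 2196 (UW228), and its calls were kept in all 4 lines, the UW228 value being that of another TE of the gene. *CUEDC1* then ranked 3, 55, 72 and 4. Of all genes, 11.3%, 12.95%, 7.68% and 12.5% were SE-associated after this division, more than in the main ranking in every line. The interval held 0.676%, 0.221%, 0.313% and 0.202% of the signal after this division, so the share of D425 came close to that of UW228.

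**Figure D4:**
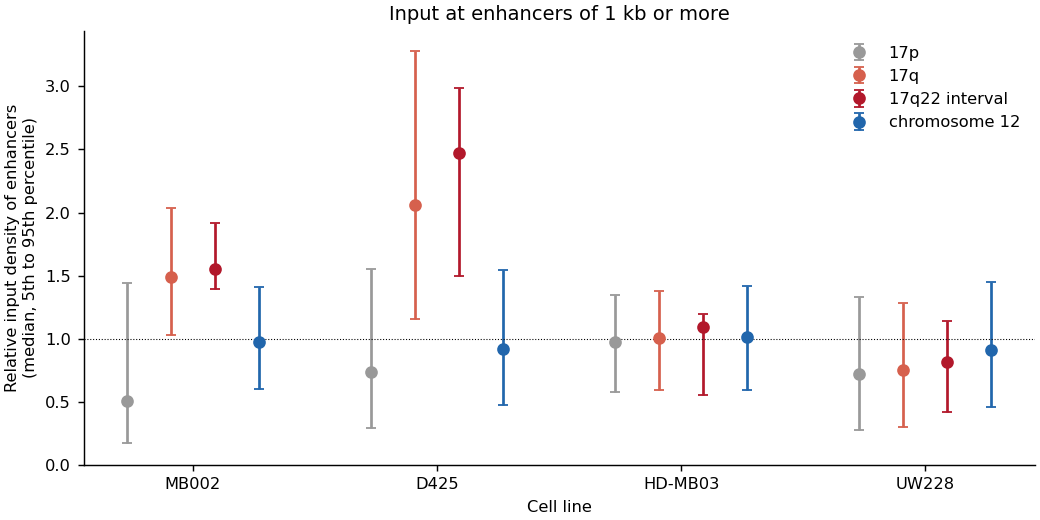
Relative input density of enhancers of at least 1 kb on 17p, on 17q, in the 17q22 interval and on chromosome 12, by line; points are medians and bars run from the 5th to the 95th percentile over enhancers. In MB002 and D425 the 17q and interval medians lie above 1 and above those of 17p, and in HD-MB03 and UW228 the arms lie together.

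The gene body of *MSI1*, at chr12:120339662-120369164 on the minus strand, is 29.5 kb long. Its best enhancer was an SE at rank 258 in MB002 and a TE at rank 1072 in D425 and 931 in HD-MB03, and no region was found in UW228. In MB002 the SE spanned 16.98 kb, at chr12:120352049-120369024, reached from intron 1 to intron 10 of 15 exons and had a signal of 39107, 1.21 times the cutoff. In D425 the TE spanned 6.06 kb, at chr12:120360504-120366566, with a signal of 14913, 0.569 times the cutoff. In HD-MB03 it spanned 3.29 kb, at chr12:120361126-120364412, with a signal of 12366, 0.540 times the cutoff. All 3 regions overlapped at exon 6, and the stretch they shared was not covered in UW228.

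Per bp, the order of the lines at *MSI1* was not that of the total signal. The signal per bp of the best enhancer was 2.304 (MB002), 2.46 (D425) and 3.76 (HD-MB03). This value averages over the gaps between stitched peaks, and peaks made up 57.5%, 69.3% and 100% of these regions. Ranked by mean signal per bp, with as many enhancers called as were deposited as SEs, *MSI1* was a TE in MB002 at rank 450 and an SE in D425 at rank 352 and in HD-MB03 at rank 168. The *MSI2* SEs had 3.44 (MB002), 2.09 (D425) and 0.744 (HD-MB03). Divided by its own relative input density, *MSI1* ranked 199 (MB002), 2302 (D425) and 909 (HD-MB03). That density was 1.03, 1.898 and 0.984, and the chromosome 12 medians were 0.970, 0.918 and 1.01.

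**Figure D5:**
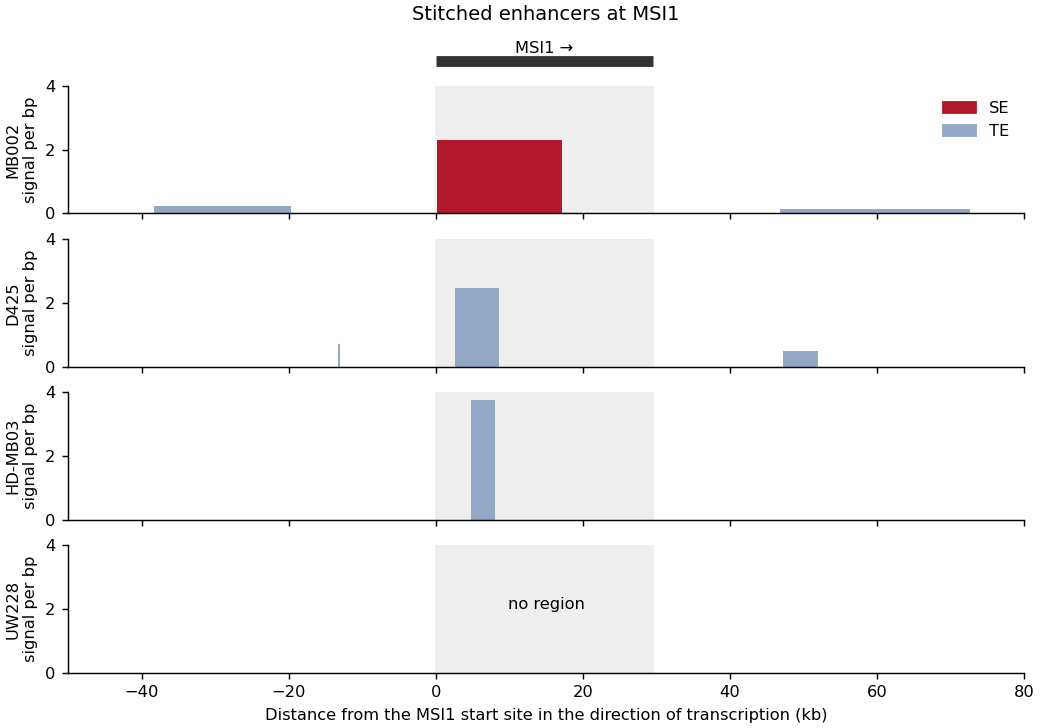
Stitched enhancers counted for *MSI1* in each line, against the distance from its start site in the direction of transcription, in kb; bar height is signal minus input per bp, width the length of the region, red an SE, blue a TE, and grey the gene body. The region near 5 to 8 kb is present in MB002, D425 and HD-MB03, at 2.304, 2.46 and 3.76 per bp, and UW228 has none.

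In a list of 9 transcripts described as Musashi targets, which includes genes of the Notch pathway, no gene was SE-associated in MB002 and HD-MB03, 2 of the 8 with an enhancer were in D425 and 1 of 7 in UW228. The shares, 0%, 25%, 0% and 14.3%, stand against 4.72% (MB002), 6.05% (D425), 5.6% (HD-MB03) and 8.89% (UW228) of all genes, and at this list size a single gene moves them by more than those values. *JAG1*, a Notch ligand, had an SE in D425 at rank 48 and TEs in MB002, HD-MB03 and UW228, and *SMAD3*, a TGF-beta signal transducer, had SEs in D425 and UW228 at ranks 76 and 208. In a list of 24 neural RNA-binding proteins, SE association was found for 4 of the 20 with an enhancer (MB002), 4 of 22 (D425), 1 of 19 (HD-MB03) and 1 of 15 (UW228), or 20.0%, 18.2%, 5.26% and 6.67%. These shares were above those of all genes in MB002 and D425 and close to or below them in HD-MB03 and UW228, with no test run. *IGF2BP3*, an oncofetal mRNA-binding protein, was the only gene of the 4 lists with an SE in all 3 G3-MB lines, at ranks 198, 218 and 47, and it had a TE at rank 2357 in UW228. *LIN28A*, which blocks let-7 maturation, and *IGF2BP1*, which stabilizes mRNAs and lies on chromosome 17, had SEs in MB002 and D425 only. The relative input density of these SEs was 1.78 and 0.972 for *LIN28A* and 1.36 and 2.125 for *IGF2BP1*. Each with an SE in 1 line were *SRRM4*, a neural splicing activator, in MB002 at rank 88, *PTBP1*, a splicing repressor, in D425 at rank 297, and *CELF1*, a regulator of splicing and mRNA stability, in UW228 at rank 713. The median best rank of the list was 4323, 3756, 2500 and 5421, and that of all genes was 7008, 6422, 4154 and 6763.5.

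Of 9 hnRNP A/B-type relatives of Musashi, *HNRNPA1*, a splicing regulator, had SEs in MB002 and D425 and *HNRNPA2B1* in HD-MB03. This 1 gene per G3-MB line was 11.1%, 11.1% and 14.3% of those with an enhancer, against 4.72%, 6.05% and 5.6% of all genes. In UW228 none of the 5 with an enhancer had an SE, against 8.89% of all genes. At this list size a single gene makes up each share. Among 31 proteins of the small mitochondrial ribosomal subunit other than *MRPS23*, SE association was found for 1 of 20 with an enhancer (MB002), 2 of 25 (D425), 0 of 19 (HD-MB03) and 1 of 18 (UW228). The shares of 5%, 8%, 0% and 5.56% were near or below the 4.72%, 6.05%, 5.6% and 8.89% of all genes. These were *MRPS10* in MB002 and D425, *MRPS11* in D425 and *MRPS27* in UW228, none of them in all G3-MB lines.

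The genes whose best ranks were most like those of *MSI2* over the 4 lines, by distance on the log10 scale with a line without an enhancer set to the place after its last rank, were *OTX2* with its antisense *OTX2-AS1*, then *RBM5* with *RBM5-AS1*, *GSE1*, *SEMA3F* with its neighbours, and *CASC8*. *OTX2*, a homeodomain transcription factor of the developing brain, ranked 3, 3 and 5 in the G3-MB lines and had no enhancer in UW228, at a distance of 0.85. *GSE1* ranked 20, 41, 20 and 4573, at a distance of 1.05. Ranks of 13 or better, 13 being that of *MSI2* in HD-MB03, were reached in all 3 G3-MB lines by 4 genes, *MSI2*, *OTX2*, *OTX2-AS1* and *CASC8*. For *MSI1* the most alike were *BAZ2A* with its neighbours *ATP5F1B* and *SNORD59A*, at ranks 236, 763, 886 and 15005 and a distance of 0.21, then *FMOD*, *FOXN1* and *TAB1*.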

How the data were processed

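H3K27Ac and input ChIP-seq of 4 lines, 1 library each, were used. The authors aligned reads to GRCh38 with Bowtie2, removed multi-mapped and duplicate reads, called peaks over input with MACS2, left out promoter flanks and stitched and ranked enhancers with ROSE. The submitters' processing notes name Bowtie2 2.3.0, SAMtools 1.9 and MACS2 2.2.6, and the header a stitching distance of 12 kb. The deposited signal is coverage per bp, scaled to mapped reads, multiplied by region length, with input not subtracted. Stitched regions could still span start sites, as that of *MRPS23* in the G3-MB lines, and coverage there counts towards their signal. The deposited score is the rank, which followed signal minus input in every line. Depth is unknown, and no interval was given.

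Tables were read with Python 3.11.15, numpy 2.4.6 and pandas 2.3.3 and drawn with matplotlib 3.10.9. Of 29989 curated RefSeq genes, the 27449 that GENCODE 44 gives a strand were used. Sequences came from GRCh38 and RefSeq promoters, of which 3 of the 5 genes had an entry. Assignment, cutoff, local input and word search were tested on simulated data. The members and lists were chosen with earlier results of these data known. Genes named were the 5, others in the interval, list genes with an SE, and the 5 most alike, of which 1 is not reported here.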

Additional observations from a re-analysis of the deposited data

How the results depend on the processing

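Where a gene still had an enhancer, the 12 SE calls of the best enhancers stayed SE in 132 of 144 recomputed values and the 6 TE calls stayed TE in 58 of 68. Of the 12 recomputed values that were no longer SE, 10 came from the ranking by mean signal per bp. These counts cannot measure how firm the calls were. Settings such as the 500 top-ranked enhancers or a 100 kb window could not remove an SE call. The enhancer shared by *MRPS23* and *CUEDC1* was also counted for each gene. All 18 calls were kept with the recomputed cutoff, with the 500 top-ranked enhancers, with GENCODE gene bodies and with the signal divided by its own relative input density. That division called more genes: 11.3% (MB002), 12.95% (D425), 7.68% (HD-MB03) and 12.5% (UW228) of all genes were then SE-associated, against 4.72%, 6.05%, 5.6% and 8.89%. Without input subtraction *MSI1* in MB002 was a TE at rank 320. Under a ranking by mean signal per bp, calls were lost in MB002 by *MSI1* (rank 450), *CUEDC1* (473) and *MRPS23* (492), in D425 by *MSI2* (530) and *CUEDC1* (612), in HD-MB03 by *MSI2* (3919), *CUEDC1* (2882) and *MRPS23* (1765) and in UW228 by *CUEDC1* (3896) and *MRPS23* (3128), and *MSI1* gained the call in D425 (352) and HD-MB03 (168). The enhancer shared by *MRPS23* and *CUEDC1* itself ranked 492, 612, 2882 and 3896 and lost its call in every line; the values 473, 1765 and 3128 are those of other enhancers of these genes, as is the SE call of *MRPS23* in D425 (346), which a TE gained. Divided by the median input within 500 kb, *MSI1* gained it in D425 (937) and HD-MB03 (783), where 12.7% and 19.7% of all genes were then SE-associated, whereas divided by its own density it fell to rank 2302 in D425. A 100 kb window gave *CCDC182* an SE in MB002 (10) and D425 (8). By body overlap alone *MRPS23* in UW228 was a TE (9751) and *CCDC182* had no enhancer, as in D425 with a 25 kb window. Chosen after seeing the data, the closest start site gave *CCDC182* an SE in MB002 (5), D425 (6) and HD-MB03 (13), and joining enhancers less than 20 kb apart did so in MB002 (4).

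SEs in the interval numbered 1 (MB002), 1 (D425), 0 (HD-MB03) and 0 (UW228) when ranked by mean signal per bp, and 2 in MB002 and 2 in D425 after joining. Divided by the 500 kb median they numbered 2 in D425 and 3 in HD-MB03, and with regions wholly inside 3 in MB002. The interval held 0.909%, 0.506%, 0.325% and 0.133% of the signal without subtraction, 0.676%, 0.221%, 0.313% and 0.202% divided by own input density, 0.739%, 0.222%, 0.323% and 0.172% divided by the 500 kb median, and, with regions wholly inside, 0.986% in MB002 and 0.134% in UW228. List genes with an SE, 6, 9, 2 and 3, changed to 10 in MB002 with own input density (all genes 11.3%), to 11 in HD-MB03 with the 500 kb median (19.7%), with mean signal per bp to 1 in D425 (6.25%) and 4 in HD-MB03 (5.48%), to 4 in HD-MB03 with 500 enhancers (9.98%) and after joining (8.66%), and to 7 in UW228 with 100 kb (10.4%). Where calls changed, the cause was not tested. The tables give no depth, so counting error is unknown. No paired analysis was possible because each line had 1 library of each kind and no test was run. Leaving out a library was not possible for the same reason.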
